A study of Glycine max with 4 samples.

Results

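Expression of 8 genes of red and far-red light signalling was followed in soybean (Glycine max) root. They were chosen by identifier, by a rule that uses no measured value although earlier results of these data were known, from 47973 genes listed in at least 1 library. Of the 8 genes, 4 encode phytochrome A. These are the maturity gene E3 (Glyma.19G224200.Wm82.a2.v1, chromosome 19) with its copy Glyma.03G227300.Wm82.a2.v1 on chromosome 3, and the maturity gene E4 (Glyma.20G090000.Wm82.a2.v1, chromosome 20) with its copy Glyma.10G141400.Wm82.a2.v1 on chromosome 10. Phytochrome B is encoded by 2 genes, Glyma.09G035500.Wm82.a2.v1 on chromosome 9 and Glyma.15G140000.Wm82.a2.v1 on chromosome 15. The last 2 genes, Glyma.08G302500.Wm82.a2.v1 on chromosome 8 and Glyma.18G117100.Wm82.a2.v1 on chromosome 18, encode the HY5-type factors STF1 and STF2. A chromosome is the number carried by the identifier, on the second assembly of the cultivar Williams 82 (Wm82.a2.v1).

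Root mRNA was read from 2 libraries of wild-type soybean (WT) and from 2 libraries of a transgenic soybean with suppressed GmHAD1-2 (Ri). GmHAD1-2 carries the name of the haloacid dehalogenase superfamily, which includes many phosphatases. All plants spent 12 days in nutrient solution with phosphate before the roots were taken. The stated KH2PO4 concentration is 250 mM, which is far above the usual micromolar range of nutrient solutions, so its unit is in doubt. The libraries of a genotype are described as biological replicates. How GmHAD1-2 was suppressed, what promoter was used, how many lines or plants stood behind a library, the cultivar and the light regime are not stated in the labels used here.

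Phytochromes are photoreceptors with a bilin chromophore that switch between a red-absorbing and a far-red-absorbing form. The active form enters the nucleus, removes PIF transcription factors and restrains the COP1-SPA ubiquitin ligase. HY5, a bZIP transcription factor that COP1 marks for degradation in the dark, can then accumulate and activate light-responsive genes. Phytochrome A accumulates in darkness and is degraded in light, whereas phytochrome B is the more stable receptor of red light. In soybean E3 and E4 delay flowering under long days. Soybean genes often persist as duplicate copies from ancient doublings of the genome. In Arabidopsis HY5 also acts in the root, where it promotes nitrate uptake, and in soybean the STF factors have been tied to light-dependent nodulation.

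The names were listed with the identifiers when the genes were chosen. Of the 47973 identifiers, 0 matched the RefSeq table used here, which holds 59048 genes of another assembly (Glycine_max_v4.0). By symbol, that table lists PHYA3 on chromosome 19, E4 (synonym PHYA2) on chromosome 20, PHYA (synonym GmphyA1) on chromosome 10, PHYB on chromosome 9, STF2 (synonym SOYSTF1B) on chromosome 8 and BZIP36 (synonym SOYSTF1A) on chromosome 18. Only these 6 symbols were looked up, and the table was not searched for every phytochrome or HY5-type gene. Their chromosomes are those of 6 of the genes described. None of the 6 lies on the chromosome of the E3 copy or of phytochrome B of chromosome 15, but other symbols were not looked up. A shared chromosome alone does not establish a name. Since the table puts STF2 on chromosome 8, and the identifiers were listed here with STF1 first, the HY5-type genes are called below by chromosome and not by number.

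The libraries held 10077854 to 11070260 expected counts, which are estimated numbers of fragments per gene. Ri replicate 1 listed the most genes, 44830, against 41921 to 42618 in the 3 other libraries. Suppression of GmHAD1-2 in the Ri libraries, markers of root and of green tissue, and other genes of the light pathway were not analysed here, because no identifier could be tied to a product name.

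All 8 genes were detected in every library, with expected counts from 40.9 for the E3 copy in Ri replicate 2 to 1246 for the E4 copy in WT replicate 2. Levels are given as FPKM, fragments scaled for both depth and transcript length, so that genes of different length can be compared. They spanned from 1.24 FPKM to 29.2 FPKM. The order by mean over the 4 libraries was the E4 copy, E4, phytochrome B of chromosome 9, STF of chromosome 18, phytochrome B of chromosome 15, STF of chromosome 8, E3 and the E3 copy. The roots were whole-tissue samples, so fewer cells with a transcript and less transcript per cell cannot be told apart.

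**Figure D1:**
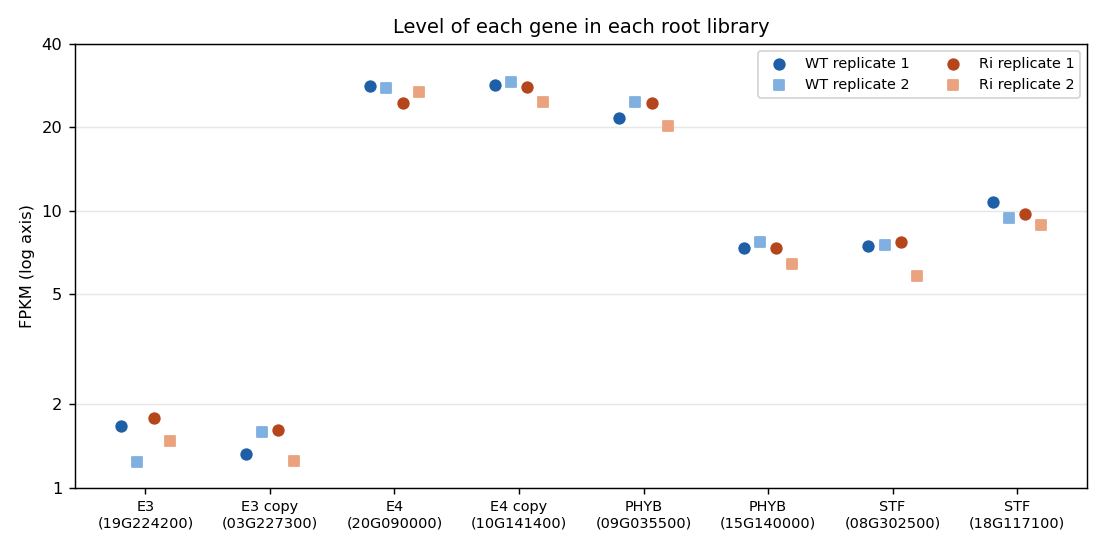
FPKM (log axis) of each gene in each of the 4 root libraries, with WT in blue and Ri in red. E4 and its copy lie between 24.5 and 29.2 FPKM, whereas E3 and its copy lie between 1.24 and 1.79 FPKM.

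The phytochrome A genes fell into an abundant pair and a scarce pair. E4 stood at 28.1 and 27.7 FPKM in WT replicates 1 and 2 and at 24.5 and 26.9 FPKM in Ri replicates 1 and 2. Its copy stood at 28.5 and 29.2 FPKM in WT and at 27.9 and 24.6 FPKM in Ri. In each library both genes were more abundant than at least 87.8% of the listed genes. For E4 and for its copy the FPKM of both Ri libraries was lower than that of both WT libraries. The genotypes did not overlap in FPKM, in either direction, for 36.1% of all tested genes.

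E3 was scarce in every library, at 1.67 and 1.24 FPKM in WT replicates 1 and 2 and at 1.79 and 1.47 FPKM in Ri replicates 1 and 2. Its expected counts were 74.2, 57.8, 74.1 and 67.1 in the same order. The E3 copy was at 1.32 and 1.59 FPKM in WT and at 1.61 and 1.25 FPKM in Ri, on expected counts of 41.8, 50.2, 47.9 and 40.9. WT and Ri values overlapped for both genes. E3 was more abundant than 27.6% to 30.7% of the listed genes in the 2 WT libraries and Ri replicate 2, and than 37.3% in Ri replicate 1, the library that lists the most genes.

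E3 and its copy together gave 4.74% to 6.09% of the summed phytochrome A level in FPKM. E4 alone gave 43.9% to 49.6% and its copy 45.4% to 50.0%. The SD over the 4 libraries was 0.597 percentage points for the sum of E3 and its copy, 2.32 for E4 and 1.94 for the E4 copy.

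The phytochrome B genes differed from each other in every library. The chromosome 9 gene was at 21.5 and 24.7 FPKM in WT replicates 1 and 2. In Ri replicates 1 and 2 it was at 24.4 and 20.2 FPKM, so that WT and Ri values overlapped. The chromosome 15 gene was at 7.33 and 7.68 FPKM in WT and at 7.32 and 6.43 FPKM in Ri. Both Ri values of the chromosome 15 gene were below both WT values. However, Ri replicate 1 was only 0.01 FPKM, the rounding step of the deposited values, below WT replicate 1. Of all tested genes, 36.1% had genotypes that did not overlap in FPKM. The chromosome 9 gene gave 74.6% to 76.9% of the summed phytochrome B level.

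The HY5-type genes were expressed at intermediate levels. STF of chromosome 8 was at 7.46 and 7.51 FPKM in WT replicates 1 and 2 and at 7.73 and 5.83 FPKM in Ri replicates 1 and 2. The highest and the lowest of these values both came from Ri. STF of chromosome 18 was at 10.7 and 9.38 FPKM in WT and at 9.73 and 8.89 FPKM in Ri, with overlapping genotypes, and it gave 55.5% to 60.4% of the summed HY5-type level.

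Between neighbours in the order of levels, 4 of the 7 gaps were not larger than the spread over libraries, since the ranges of FPKM overlapped. These were the E4 copy and E4, E4 and phytochrome B of chromosome 9, phytochrome B of chromosome 15 and STF of chromosome 8, and E3 and its copy. E4 nonetheless exceeded phytochrome B of chromosome 9 within each of the 4 libraries, by 1.18-fold between the means. In Ri replicate 1 they nearly tied, at 24.53 and 24.39 FPKM, and E4 had fewer expected counts there (976 against 1081). The ranges did not overlap between phytochrome B of chromosome 9 and STF of chromosome 18 (2.34-fold between the means), between STF of chromosome 18 and phytochrome B of chromosome 15 (1.35-fold), or between STF of chromosome 8 and E3 (4.62-fold).

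Summed over its 4 genes, phytochrome A was at 59.6 and 59.7 FPKM in WT replicates 1 and 2 and at 55.8 and 54.2 FPKM in Ri replicates 1 and 2. Both Ri sums lay below both WT sums, a ratio of the means of 0.922. The exact two-sided permutation test gave p = 0.333, which is the smallest p that 2 libraries against 2 allow. Among single genes, 36.1% of all tested had genotypes that did not overlap in FPKM. Phytochrome B summed to 28.9 and 32.4 FPKM in WT and to 31.7 and 26.6 FPKM in Ri, and the HY5-type genes to 18.2 and 16.9 FPKM in WT and to 17.5 and 14.7 FPKM in Ri. The genotypes overlapped for both sums (exact permutation p = 0.667 each). The summed level of phytochrome A was 1.93 times that of phytochrome B (SD 0.147, n = 4 libraries), from 1.76 to 2.06 times. It was 3.42 times that of the HY5-type genes (SD 0.225, n = 4), from 3.20 to 3.68 times.

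**Figure D2:**
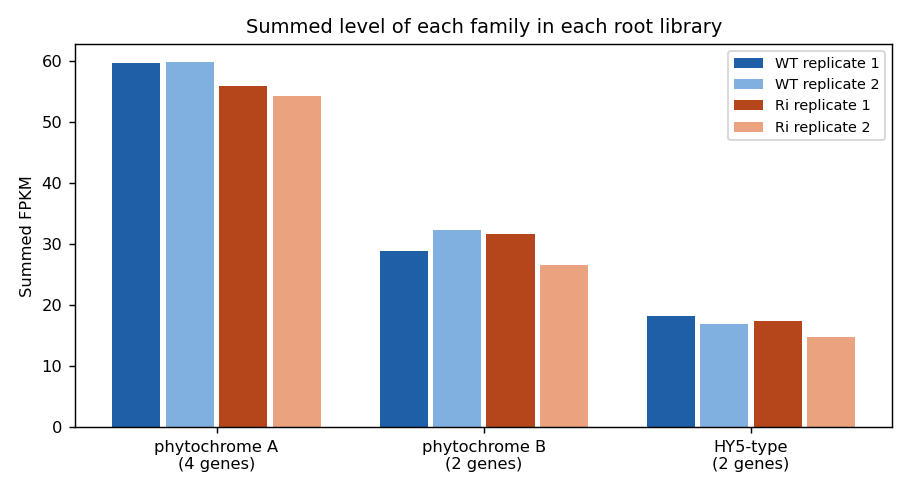
Summed FPKM of the 4 phytochrome A, 2 phytochrome B and 2 HY5-type genes in each library, 1 bar per library. Phytochrome A is the largest sum in all 4 libraries, at 54.2 to 59.7 FPKM.

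The copies of a pair were compared within each library, where depth cancels. Phytochrome B of chromosome 9 exceeded that of chromosome 15 by 2.94-fold and 3.21-fold in WT replicates 1 and 2 and by 3.33-fold and 3.14-fold in Ri replicates 1 and 2. In each library the exact 95% binomial interval of the counts, scaled for length, excluded equality, the lowest bound being 2.60-fold and the highest 3.77-fold. These intervals cover counting error only. The mean log2 ratio was 1.66 (SD 0.08, n = 4), or 3.15-fold. The exact two-sided sign-flip permutation test over libraries gave p = 0.125 (0.25 after Benjamini-Hochberg adjustment over the 4 pairs), and 0.125 is the smallest p it can give with 4 libraries.

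STF of chromosome 18 exceeded STF of chromosome 8 in 4 of 4 libraries, by 1.44-fold and 1.25-fold in WT replicates 1 and 2 and by 1.26-fold and 1.52-fold in Ri replicates 1 and 2. The counting interval excluded equality in WT replicate 1 (1.12-fold to 1.84-fold) and Ri replicate 2 (1.15-fold to 2.00-fold) and included it in the other two. The mean log2 ratio of the chromosome 8 to the chromosome 18 gene was -0.45 (SD 0.14, n = 4), again with an exact sign-flip p of 0.125 (adjusted 0.25). Much of this difference in FPKM came from the scaling for length. The length is given as 1501 bases for the chromosome 8 gene and 1231 to 1271 bases for the chromosome 18 gene. Whether these lengths are right was not tested. In expected counts alone the mean log2 ratio was -0.17.

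The E4 pair showed no steady order. E4 was at 0.986 and 0.952 times its copy in WT replicates 1 and 2, at 0.879 times in Ri replicate 1 and at 1.09 times in Ri replicate 2. The counting intervals of the Ri libraries excluded equality in opposite directions, at 0.806 to 0.959 times in replicate 1 and 1.004 to 1.19 times in replicate 2. Both WT intervals included equality. These intervals leave out the error from dividing shared fragments between the copies, so they do not settle a reversal between the Ri replicates. The mean log2 ratio was -0.04 (SD 0.13, n = 4; exact sign-flip p = 0.625, adjusted 0.625).

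E3 was above its copy in 3 of 4 libraries, by 1.27-fold in WT replicate 1, 1.11-fold in Ri replicate 1 and 1.18-fold in Ri replicate 2, and was at 0.780 times the copy in WT replicate 2. All 4 counting intervals included equality, and together they ran from 0.528 to 1.88 times. The mean log2 ratio was 0.09 (SD 0.31, n = 4; exact sign-flip p = 0.625, adjusted 0.625), and 0.125 is again the smallest p this test allows. The model of the copy is shorter, 2925 bases against 4052 to 4314 bases for E3, and in expected counts alone E3 led by a mean log2 ratio of 0.59.

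**Figure D3:**
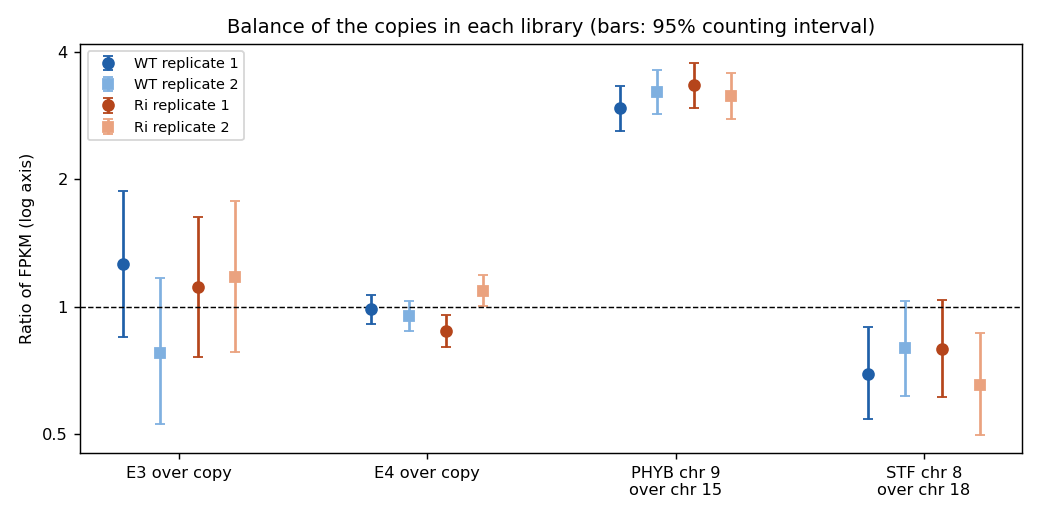
Ratio of FPKM between the genes of each pair (log axis) in each library, with bars for the exact 95% binomial interval of the counts scaled for length (counting error only). The phytochrome B ratios lie between 2.94 and 3.33 and the STF ratios between 0.656 and 0.801, while both other pairs lie around 1.

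The balance of copies did not differ between genotypes beyond the spread of the libraries. The mean log2 ratio changed from WT to Ri by 0.20 in the E3 pair, 0.02 in the E4 pair, 0.07 in the phytochrome B pair and -0.05 in the STF pair. Exact two-sided permutation p-values were 1 for the E3 and E4 pairs and 0.667 for the others (adjusted p = 1 for all 4), in a design that cannot go below 0.333. For phytochrome B the ratio was 1.62 on the log2 scale (SD 0.09, n = 2) in WT and 1.69 (SD 0.06, n = 2) in Ri.

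Fragments that match several genes are divided among them in expected counts. All 8 genes had a fractional expected count (off a whole number by more than 0.005) in every library. Up to rounding, the counts of the genes of a pair added to a whole number in every library. In WT replicate 1, for example, E3 stood at 74.24 and its copy at 41.76. Fragments were thus divided between the copies of each pair, and how many is not stated. The balance of copies is uncertain to that extent, which the counting intervals leave out.

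Whether any of the 8 transcripts differed in the suppressed line was asked by comparing Ri with WT. All 8 genes passed the filter on low counts. None passed the threshold, with 0 of 8 at an adjusted p under 0.05 in edgeR's quasi-likelihood test (Benjamini-Hochberg over 34151 genes), where 0.117% of all tested genes did, and 0 in DESeq2 and in limma. At an unadjusted p under 0.05 there were also 0 of 8, where 6.25% of all tested genes lay. The adjusted p-values in edgeR ran from 0.944 to 0.993.

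The log2 fold changes (Ri over WT) of the abundant phytochrome A genes were -0.13 for E4 (standard error 0.19, edgeR adjusted p = 0.944) and -0.14 for its copy (standard error 0.20, adjusted p = 0.944). Their 95% intervals were 0.669 to 1.25 times WT for E4 and 0.645 to 1.27 times for the copy. Neither interval reaches a 2-fold change. Phytochrome B of chromosome 9 had a log2 fold change of -0.06 (standard error 0.22, edgeR adjusted p = 0.982) and an interval of 0.664 to 1.39 times. That of chromosome 15 had -0.12 (standard error 0.18, edgeR adjusted p = 0.944) and 0.674 to 1.25 times.

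E3 had a log2 fold change of 0.12 (standard error 0.28, edgeR adjusted p = 0.967), with an interval of 0.676 to 1.74 times WT. Its copy had -0.03 (standard error 0.33, edgeR adjusted p = 0.993) and 0.559 to 1.71 times, the widest of the 8. STF of chromosome 8 had -0.14 (standard error 0.25, edgeR adjusted p = 0.952) and 0.600 to 1.37 times, and STF of chromosome 18 had -0.14 (standard error 0.21, edgeR adjusted p = 0.944) and 0.636 to 1.29 times.

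**Figure D4:**
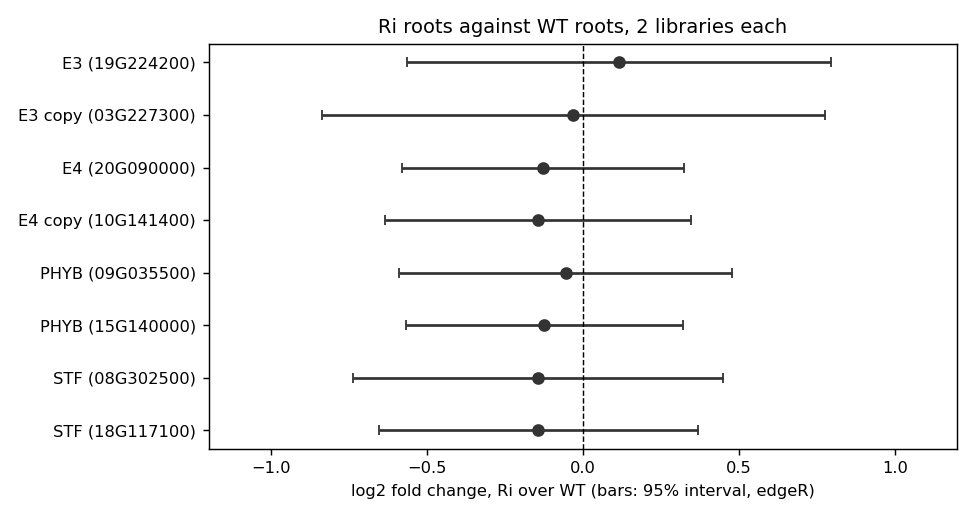
Log2 fold change of each gene, Ri over WT (2 libraries each), with its 95% interval from edgeR. All 8 intervals include 0, and none reaches -1 or 1 on the log2 scale.

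In 7 of the 8 genes the log2 fold change was below 0, against 47.9% of all tested genes, and the median was -0.13 against 0.02 over all tested genes. In FPKM the genotypes did not overlap for 3 of 8 genes (E4, its copy and phytochrome B of chromosome 15), where 36.1% of all tested genes did not overlap. On edgeR's CPM scale (counts scaled to library size with TMM factors) this held for 1 of 8, E4, with 36.1% of all genes. Both shares of non-overlap are near or below that of all genes.

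For E3, its copy, both phytochrome B genes and STF of chromosome 8 the direction depended on single libraries. For E4, its copy and STF of chromosome 18 it stayed below 0 whichever library was left out. Ri replicate 2 gave the lowest FPKM of the 4 for 6 of the 8 genes, where this held for 24.7% of all tested genes. The exceptions were E3 and E4. Without Ri replicate 2, 4 of the 7 negative log2 fold changes were above 0 and 3 stayed below (E4, its copy and STF of chromosome 18), and the 8 values ran from -0.16 to 0.28. Without Ri replicate 1, 0 were above 0 and they ran from -0.40 to -0.06. Whether Ri replicate 2 differs in plants, handling or library was not tested.

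The differences between replicates of a genotype were of the usual size for genes of similar count. E4 was the steadiest gene, with an absolute log2 difference of 0.04 within WT and 0.05 within Ri. Among 883 genes with a mean count within 1.2-fold of that of E4, 13.4% and 8.15% differed less. STF of chromosome 8 was steady within WT (0.07) and differed most of the 8 within Ri (0.47), where 66.7% of 3520 genes of similar count differed less. For each of the 8 genes the highest CPM was under 1.5 times the lowest over the 4 libraries. That held for 58.4% of the 23934 tested genes in the same range of mean counts.

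Profiles over the 4 libraries were compared as a description, by the root mean square difference of log2 CPM after removal of each gene's mean. The phytochrome B genes were the most alike pair, at 0.06, and 2.30% of the other tested genes were closer to the chromosome 9 gene than its own copy was. The STF pair was at 0.13 and the E4 pair at 0.11, with 9.70% of genes closer to STF of chromosome 8 and 11.5% closer to E4. E3 and its copy were at 0.22, and 31.5% of genes were closer to E3. These genes rest on 40.9 to 74.2 expected counts per library, and the phytochrome B genes on 333 to 1158. How much of each distance is counting error was not tested. Over 4 libraries 993 to 2999 genes lay within 0.1 of each gene described, so closeness at this level singles out no gene.

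The files also give a transcript length per gene and library. Among genes listed in all 4 libraries this length differed between libraries in 0 of 24960 genes with 1 transcript and in 12377 of 13869 genes with several, so it varied only where a gene has several transcripts that can mix. E3 has 2 annotated transcripts, and its length was 4084 and 4314 bases in WT replicates 1 and 2 and 4052 and 4064 bases in Ri replicates 1 and 2. WT replicate 2 thus had the longest mean E3 transcript, the fewest E3 counts and the lowest E3 level. The E4 copy, with 4 transcripts, varied only from 3931 to 3948 bases, and E4, with 2 transcripts, was listed at 3893 bases in all 4 libraries. Phytochrome B of chromosome 15, with 5 transcripts, ran from 4586 to 4632 bases, and STF of chromosome 18, with 3 transcripts, from 1231 bases in Ri replicate 2 to 1271 bases in WT replicate 1. Both Ri lengths were below both WT lengths for E3 and the E4 copy and above them for phytochrome B of chromosome 15. That is 3 of the 4 genes described whose length varied, where the genotypes did not overlap for 36.8% of all genes with a varying length. No test was made of lengths, since their error is not given in the files.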

How the data were processed

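Root RNA was isolated with Trizol and made into libraries with a BGI RNA-Seq kit, per the labels' protocols. The authors deposited 1 table per library with a transcript length in bases, an expected count (estimated fragments per gene, not normalized) and an FPKM value (scaled by the authors for length and depth, rounded to 0.01), per the file headers. The submitters' processing notes name RSEM, HISAT and Bowtie2 without role, version or setting, and whether strand was used is not stated there. Genes at 0 are not listed and were taken as 0.

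The members and lists were chosen by identifier or name, with earlier results of these data known, so the choice was not blind to them. Expected counts were rounded and tested with edgeR 4.0.16 (R 4.3.3; TMM, default filter, robust quasi-likelihood F-test, genotype as the only term, Benjamini-Hochberg over 34151 genes, threshold 0.05). Standard errors are the log2 fold change over the square root of F, and 95% intervals use edgeR's degrees of freedom. P-values measure the spread between these libraries only. Profiles used log2 CPM with a prior count of 2. DESeq2 1.42.0, limma 3.58.1 on log2(FPKM + 1) and log2(FPKM + 0.1), other scalings, no filter, blocks and each library left out were alternatives. The edgeR fit was tested on simulated data. Lists of light-pathway and tissue-marker genes, set by product name, were not run, and no gene of like profile is named, because identifiers carry no product name here. All 8 genes and, within pairs, all 4 comparisons are reported. No sequence is shown.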

Additional observations from a re-analysis of the deposited data

How the results depend on the processing

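The count of 0 of 8 genes past the threshold held in the 8 alternatives with all 4 libraries, where the lowest of 64 adjusted p-values was 0.815. With 1 library left out (4 alternatives) the lowest of 32 was 0.511, but there the spread comes from the other genotype and the lone library is assumed to vary like it. Log2 fold changes ran from -0.40 to 0.28. No fold change turned sign with all 4 libraries. Leaving out 1 library turned 8 values. These were E3 (-0.0068), its copy (0.15) and phytochrome B of chromosome 9 (0.09) without WT replicate 2, and E3 (-0.064) without Ri replicate 1. Without Ri replicate 2 they were the E3 copy (0.17), phytochrome B of chromosomes 9 (0.10) and 15 (0.0027) and STF of chromosome 8 (0.077). With 1 library left out, E3 ran from -0.064 to 0.28, its copy from -0.257 to 0.17, phytochrome B from -0.235 to 0.10 (chromosome 9) and from -0.26 to 0.0027 (chromosome 15), and STF from -0.40 to 0.077 (chromosome 8) and from -0.25 to -0.044 (chromosome 18). E4 ran from -0.16 to -0.094 and its copy from -0.27 to -0.024. Over all genes, the 40 calls of edgeR became 48 with DESeq2 size factors, 0 with library totals, 301 in DESeq2, 0 in limma on log2(FPKM + 1) and 0 on log2(FPKM + 0.1), 164 without a filter, and 0 to 1994 with 1 library left out. For these counts the cause was not tested. A replicate block gave 107. Replicate numbers are not said to pair the libraries. The replicate differences of WT and Ri correlated at -0.312 across 20248 genes of at least 8 CPM. With 1 difference per genotype, this correlation cannot decide whether the libraries pair. A crossed replicate block, added after seeing that correlation, gave 68. Neither block called any of the 8 genes.

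Copy ratios kept their sign per annotated length and with 0.1 added to FPKM. Without length correction the mean log2 ratio was 0.59 for the E3 pair, 1.57 for phytochrome B and -0.17 for STF, as the lengths of the copies differ. With 1 library left out it ran from 0.01 to 0.24 for the E3 pair, -0.093 to 0.011 for the E4 pair (above 0 without Ri replicate 1), 1.63 to 1.69 for phytochrome B and -0.49 to -0.39 for STF. The change from WT to Ri ran from -0.15 to 0.55 (E3 pair), -0.14 to 0.17 (E4 pair), 0.01 to 0.14 (phytochrome B) and -0.19 to 0.091 (STF). In that change, the values that turned sign were -0.15 for the E3 pair, -0.01 for the E4 pair and 0.06 for STF without WT replicate 2, and -0.14 for the E4 pair and 0.091 for STF without Ri replicate 2. Depth limits E3 and its copy, which rest on 40.9 to 74.2 expected counts per library. The lists by product name were not run under any setting.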
